A study of Sorghum bicolor with 96 samples.

Results

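The 142 genes described here had lower transcript levels in sorghum leaves after 1 h of cold and after 1 h of heat when either stress was given shortly after dawn, at ZT1. ZT is zeitgeber time, the hours since the lights came on. The genes were chosen from the measured values. Counts were scaled to a common library total to give CPM, the usual unit for read counts relative to library size, and 16216 of the 34129 genes in the table had a mean of at least 2 CPM over all libraries. For each group of libraries the log2 of its mean CPM plus 1 was taken, the median over those genes was subtracted, and the control was subtracted from the stress group. This difference is called D below. A gene was a member when D was -1 or less, a 2-fold lower level, in all 4 comparisons at ZT1.

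Leaves of Sorghum bicolor were collected from plants kept at 30 °C in the day and 20 °C in the night, and polyA RNA was sequenced as single-end reads of 75 nt. Stressed plants had been held for 1 h at 10 °C in a cold experiment, or for 1 h at 42 °C in a heat experiment, and each experiment had its own unstressed control plants. The cold experiment used SC224, given as tolerant, and RTX430, given as sensitive to temperature, while the heat experiment used Macia, given as tolerant, and RTX430. Both experiments sampled ZT1, ZT6, ZT9 and ZT15, with 3 biological replicates of stress and 3 of control for each genotype label and time, which makes 32 groups and 96 libraries. No mutant or transgenic plants were included.

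Sorghum is a cereal of tropical origin that is sensitive to chilling. In leaves, the levels of many transcripts follow the day, driven by light and by the circadian clock, an internal oscillator that anticipates dawn and dusk. Transcripts that peak around dawn are a well-known class of plant genes, and the response of a plant gene to temperature often depends on the time of day at which the stress is given. The identifiers of the count table were not paired with names in the sources used here, so members are given by identifier and without a function.

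Library totals ran from 1059841 to 11545393 counts. Several libraries went against their labels. Between the cold and the heat libraries labelled RTX430, 250 genes were on in all libraries of one and off in the other, whereas 6 such genes separated the cold SC224 from the heat RTX430 libraries. The heat libraries labelled RTX430 therefore were closer by this measure to the cold libraries labelled SC224 than to those labelled RTX430, and the labels are kept here as names only. None of the 142 members was among the genes that switched between any 2 labels. This followed from the rule, since a member needs a measurable ZT1 control level under every label, and it does not bear on the labels. A pair of libraries held transcripts otherwise seen only under other labels. Cold SC224 ZT1 control replicate 1 held 130 CPM from the 59 genes otherwise seen only in cold RTX430 and 194 CPM from the 45 seen only in Macia, and heat RTX430 ZT15 control replicate 1 held 415 and 300.0 CPM. In addition, heat RTX430 ZT1 stress replicate 2 has the first time of day in its title and ZT2 elsewhere in its labels, and the treatment text gives the earliest time as ZT0. With the SC224 library and the library carrying ZT2 left out of the choice of members, 26 of the 27 counts compared stayed within 1.5 times their value.

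At ZT1 the chosen genes are described without a test, since these libraries chose them. The RNA came from whole leaf samples, in which fewer cells of a type and less RNA per cell cannot be told apart. The median D over the 142 members was -1.45 for cold in RTX430, with a range of -4.08 to -1.001, and -1.72 for cold in SC224, with a range of -4.28 to -1.02. Under heat it was -1.84 in RTX430, from -4.95 to -1.004, and -1.92 in Macia, from -5.01 to -1.01. The middle member was thus 2.73-fold and 3.29-fold lower after cold in the 2 labels, and 3.58-fold and 3.79-fold lower after heat. A D of -1 or less was found in 4.97% of the 16216 genes for cold RTX430, 10.7% for cold SC224, 17.1% for heat RTX430 and 15.8% for heat Macia. Cold in RTX430 was the comparison nearest to the threshold for 68 of the members.

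All 3 stress libraries lay below all 3 controls for 130 members under cold in RTX430, 112 under cold in SC224, 137 under heat in RTX430 and 132 under heat in Macia. Among the 16216 genes the same held for 14.7%, 11.5%, 23% and 26.6%. It held in all 4 comparisons for 100 members, against 1.75% of the 16216 genes. These counts follow in part from the rule and are read no further.

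Members differed in which stress lowered them more. The mean D of the 2 heat comparisons was below that of the 2 cold comparisons in 89 members, both heat values lay below both cold values in 55, and both cold values lay below both heat values in 22. Across the 142 members, D in the 2 cold comparisons had a Pearson r of 0.55, and D in the 2 heat comparisons had an r of 0.69. Between a cold and a heat comparison r ran from 0.12 to 0.36. These are descriptions over genes that share libraries, and genes are not independent replicates. The same counts and r over all 16216 genes are not given here, so neither is read as particular to the members. Of those genes, 17.1% and 15.8% had a D of -1 or less under heat, and 4.97% and 10.7% under cold.

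The members together made up 1.07% ± 0.06 of all counts in the cold-stressed RTX430 libraries at ZT1, against 2.81% ± 0.85 in their controls (SD, n = 3 each). In SC224 the share was 1.15% ± 0.08 after cold, against 3.11% ± 0.42. After heat it was 0.504% ± 0.040 in RTX430, against 3.40% ± 0.53, and 0.603% ± 0.168 in Macia, against 3.96% ± 0.67. No stress library reached the share of any of its controls. The scaling of the libraries moved with both stresses at ZT1. The mean TMM factor, the edgeR term that corrects a library total for its composition, was 0.807 in cold-stressed RTX430 against 0.710 in its controls, and 0.902 in cold-stressed SC224 against 0.681. Under heat it moved the other way and was 0.533 in heat-stressed RTX430 against 0.930 in its controls, and 0.513 in heat-stressed Macia against 0.855. The part of this in the ZT1 values was not tested.

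**Figure D1:**
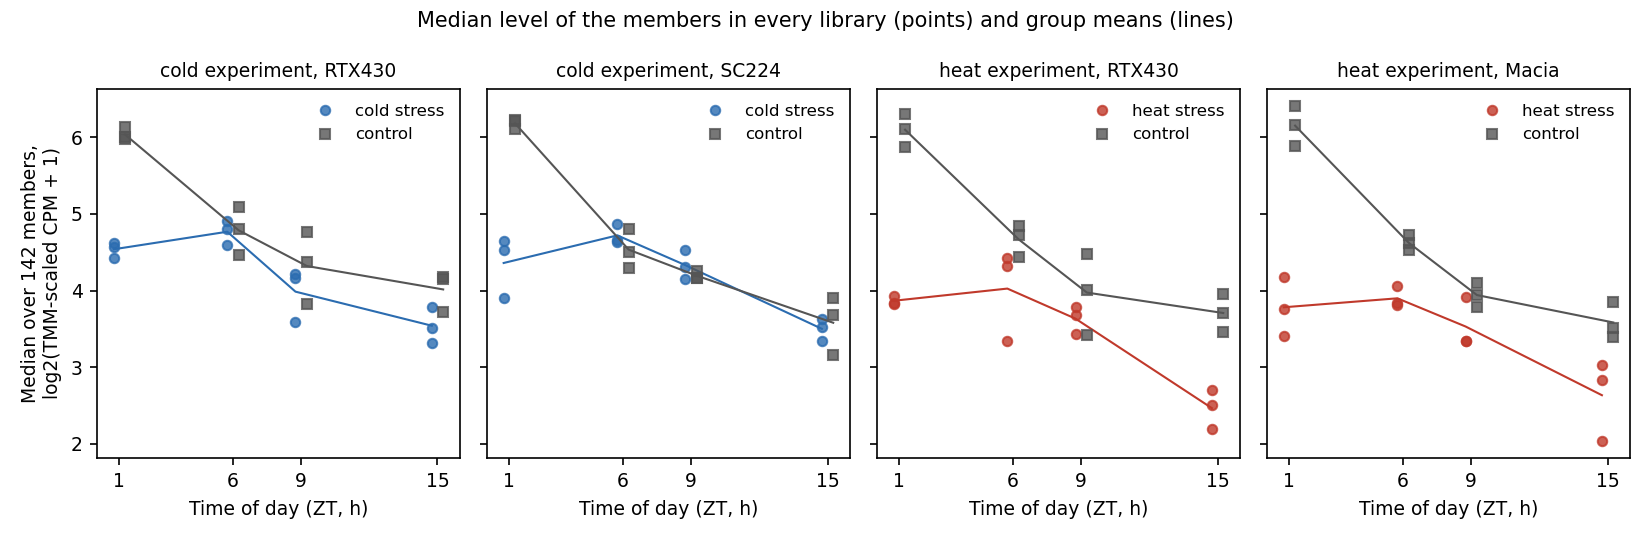
Median level of the 142 members in every library, as log2 of TMM-scaled CPM plus 1, against the time of day in hours (ZT), for each experiment and genotype label. Circles are stress libraries, squares are controls and lines join the means of 3 libraries. The ZT1 controls lie near 6 in all 4 panels, above every other group.

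Sobic.003G340300 had the most negative D of its 4 comparisons taken at their weakest, at -2.94. It had 8.75, 11.9 and 13.6 CPM in cold-stressed RTX430 libraries at ZT1, against 56.6, 66.6 and 152 CPM in controls, on the TMM scale used for the levels of single genes in each library. In cold-stressed SC224 it had 6.13, 12.6 and 15.3 CPM, against 77.6, 106 and 142 CPM. Heat gave 2.97, 8.63 and 15.6 CPM in RTX430, against 106, 126 and 139 CPM, and 5.67, 6.62 and 7.05 CPM in Macia, against 97.5, 106 and 171 CPM. The groups did not overlap in any of the 4 comparisons. At the later times the same gene was not called under either stress in any label, with log2 fold changes of -0.97 to 0.85.

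The member with the highest level over all libraries, Sobic.004G282900, averaged 868 CPM on the library-total scale of the rule. On the TMM scale at ZT1 it had 921, 996 and 1170 CPM in cold-stressed RTX430 libraries, against 2390, 2660 and 4340 CPM in controls. Under cold in SC224 its libraries overlapped, at 608, 737 and 1970 CPM after cold against 1680, 2650 and 2780 CPM. The identifier next to it in the table, Sobic.004G282933, is also a member, and there were 5 such pairs of neighbouring identifiers among the members. Whether the members of a pair share reads cannot be read from the files. Over all members the mean level, again on the scale of library totals, had a median of 27.5 CPM and ran from 2.00 to 868 CPM, beside a median of 15.7 CPM for the 16216 genes.

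At the edge of the rule, the members just inside had a largest D of -1.0009, -1.0010 and -1.0038. The genes just outside had -0.997, -0.992 and -0.985. At most 3 counts in each of the 3 libraries, which is treated here as the floor, were found in a ZT1 stress group for 26 members and in a ZT1 control group for 0, so the folds of those 26 depend on the 1 CPM added before the log.

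**Figure D2:**
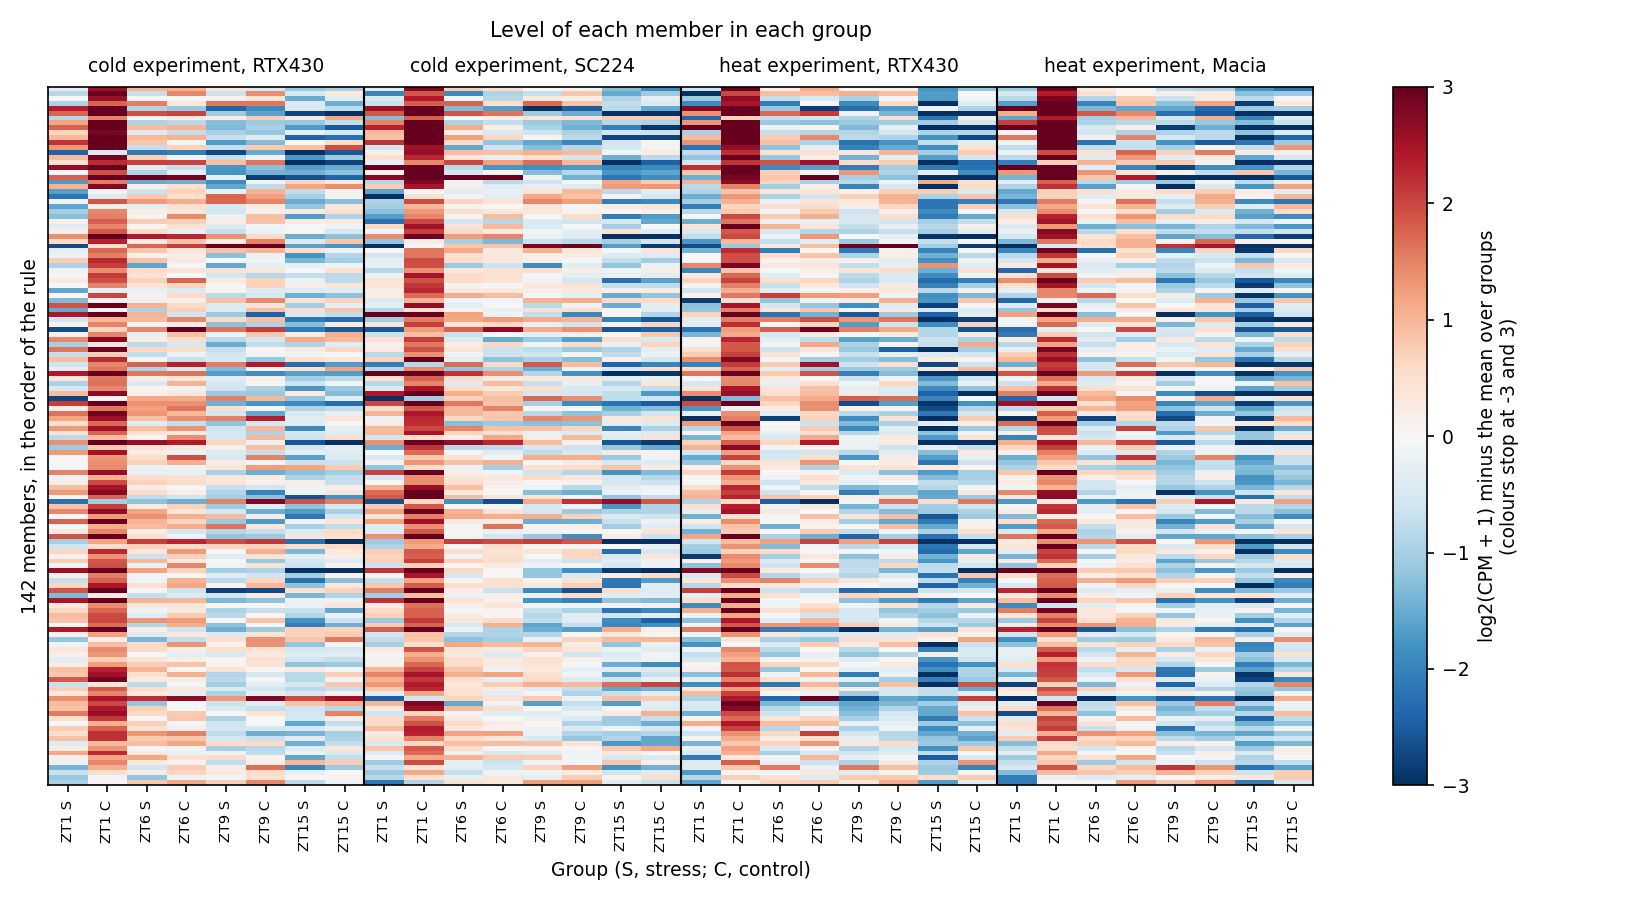
Level of each of the 142 members (lines, in the order of the rule) in each of the 32 groups, as log2 of CPM plus 1 minus the mean of that member over the groups. The ZT1 controls (ZT1 C) form a dark red column in each of the 4 blocks, and blue, the low levels, is densest in the heat-stressed ZT15 groups of both heat labels.

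Unstressed leaves showed when in the day the members were highest. Controls at ZT1 were used by the rule, so their level is again only described: ZT1 was the highest of the 4 control times in 116 members in cold RTX430, 120 in cold SC224, 114 in heat RTX430 and 117 in heat Macia, or 80.3% to 84.5% of them. Among the 16216 genes the share was 31.1% to 34.6%. The later controls entered the rule only through the filter on the mean CPM over all libraries. Of ZT6, ZT9 and ZT15, ZT6 had the highest level in 75, 77, 81 and 88 members in the same order of labels, or 52.8%, 54.2%, 57% and 62%. Among the 16216 genes the share was 34.6%, 36.3%, 38.6% and 39.3%. Whether these shares depend on the scaling of the libraries was not tested.

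Controls at ZT6, ZT9 and ZT15 were compared with a joint test on 2 degrees of freedom in edgeR, with Benjamini-Hochberg adjustment over all genes tested. Lower or higher below is only the sign of ZT15 minus ZT6, which had no test of its own, and a call can rest on ZT9. Sobic.004G063400 in cold SC224, for example, was called and counted as lower at a log2 of -0.09. In cold RTX430, 56 members changed over these times and were lower at ZT15 than at ZT6, and 14 changed and were higher. The background was 12.9% of all genes tested in each direction. In cold SC224 the counts were 53 lower and 15 higher, beside 13.4% and 13.6% of all genes. Heat RTX430 gave 50 lower and 9 higher, beside 13.3% and 13%, and heat Macia gave 56 lower and 9 higher, beside 12.7% and 10.8%. In all 4 labels at once 39 members, or 27.5%, were called and lower at ZT15, against 6.45% of all genes tested in both experiments. The number called and higher in all 4 was 2, against a background of 3.82%.

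This split depended on the scaling. With library totals in place of TMM factors, the calls were 36 lower and 30 higher in cold RTX430, 38 and 34 in cold SC224, 34 and 30 in heat RTX430, and 37 and 22 in heat Macia. The shares of all genes called lower and higher under library totals are not given here, so these counts have no background of their own. TMM factors of the controls rose through the day, with means of 0.710, 0.981, 1.17 and 1.42 at ZT1, ZT6, ZT9 and ZT15 in cold RTX430. Without heat RTX430 ZT15 control replicate 1, one of the libraries that went against its label, heat RTX430 gave 41 lower and 8 higher.

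Sobic.006G097500 had the widest span among the later controls. In cold RTX430 controls it had 651, 778 and 887 CPM at ZT6, 543, 658 and 867 CPM at ZT9, and 14.6, 15.3 and 16.8 CPM at ZT15. The ZT15 level was lower than the ZT6 level by a log2 of -5.63 in cold RTX430, -5.76 in cold SC224, -6.50 in heat RTX430 and -6.67 in heat Macia. The joint edgeR test over the 3 later times gave an adjusted p of 5.9e-14 in cold RTX430. Its ZT1 controls, at 338, 368 and 380 CPM in cold RTX430, were below ZT6 and ZT9, so it is one of the members that did not peak at ZT1.

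The 2 members that were higher at ZT15 in all 4 labels were Sobic.004G216700 and Sobic.001G509600, named after their values were seen. In cold SC224 controls Sobic.004G216700 had 13.7, 15.7 and 15.9 CPM at ZT1, 0.311, 0.716 and 0.882 CPM at ZT6, 33.6, 45.4 and 60.2 CPM at ZT9, and 34.2, 37.2 and 39.3 CPM at ZT15. Its control level was thus lowest at ZT6, and the change over the later times was called in all 4 labels, with adjusted p of 7.9e-07 in heat Macia and 6.8e-10 in cold RTX430. At ZT9 this gene was lower after cold in RTX430, at 19.8, 23.4 and 41.5 CPM against 55, 71.1 and 85.9 CPM in controls (log2 fold change -1.31 ± 0.36 SE, edgeR, adjusted p = 0.042). It was also lower after heat in Macia at ZT9, at 12.0, 18.5 and 19.3 CPM against 46.2, 58.3 and 60.0 CPM (-1.70 ± 0.53, adjusted p = 0.030). No library of the stressed groups reached the controls in either case.

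Stressed leaves at ZT1 were also set beside the later controls. The median member after cold at ZT1 was lower than the ZT6 controls by a log2 of -0.32 in RTX430 and -0.12 in SC224, and higher than the ZT15 controls by 0.58 and 0.59. After heat it was lower than the ZT6 controls by -0.52 in RTX430 and -0.73 in Macia, and higher than the ZT15 controls by 0.19 and 0.42. These differences use the libraries of the rule and carry no test. Mean TMM factors differed between these groups. They were 0.807 and 0.902 after cold at ZT1, against 1.42 and 1.49 in ZT15 controls, and 0.533 and 0.513 after heat, against 1.58 and 1.55. The members' share of all counts was 1.07% and 1.15% after cold, against 0.939% and 0.763% in ZT15 controls. After heat it was 0.504% and 0.603%, against 0.766% and 0.725%. The part of the scaling in these differences was not tested.

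**Figure D3:**
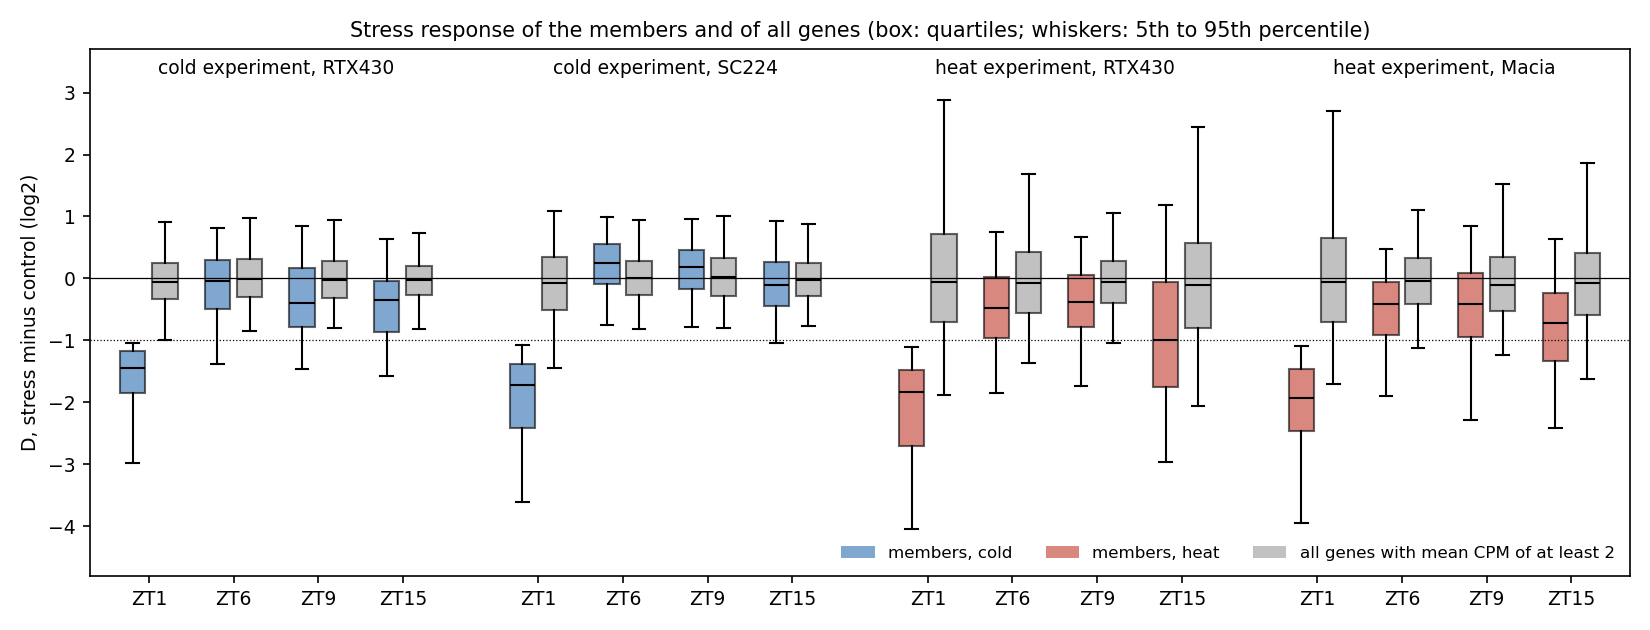
D, the stress group minus its control on the log2 scale, at each time of day for the 142 members (coloured) and for the 16216 genes with a mean of at least 2 CPM (grey). Boxes are quartiles over genes with the median as a line, whiskers reach the 5th and 95th percentiles, and the dotted line is the threshold of -1 that the rule applied at ZT1. After ZT1 the member medians for cold lie nearer to 0 than at ZT1, and those for heat stay below 0, lowest at ZT15 in RTX430.

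The stress comparisons at ZT6, ZT9 and ZT15 were not used by the threshold on D, and their libraries entered the rule only through the filter on mean CPM. They were tested with edgeR's quasi-likelihood test over 18248 genes for cold and 18648 for heat, and a gene was called at a Benjamini-Hochberg adjusted p under 0.05. All 142 members were tested. The genes tested also include genes with a mean under 2 CPM, which no member has, so the background shares are not matched for level. Lowering by cold in at least 1 of the 6 later cold comparisons was called in 9 members, or 6.34%, beside 2.31% of all genes tested. Lowering by heat in at least 1 of the 6 later heat comparisons was called in 76, or 53.5%, beside 24.1%. Lowering by both stresses was called in 5 members, or 3.52%, against 0.609% of the 17561 genes tested in both experiments. Of the members, 16, or 11.3%, were raised in at least 1 of the 12 later comparisons, against 21.4% of the 17561, and 54, or 38%, were called in none, against 53.3%.

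Cold after ZT1 changed few members, and few of all genes tested. In RTX430 it lowered 6 and raised 1 at ZT6, where 0.827% and 2.37% of all genes were lowered and raised, lowered 3 and raised 3 at ZT9, beside 0.362% and 1.76%, and lowered 1 and raised 0 at ZT15, beside 0.214% and 0.789%. In SC224 it lowered 1 and raised 2 at ZT6, beside 0.806% and 2.04%, and lowered 1 and raised 0 at ZT9, beside 0.51% and 2.2%. At ZT15 in SC224 edgeR called 0 members, and DESeq2 also called 0. Of all genes, cold lowered 0.0877% and raised 1.01% there. That comparison had 18 members at an unadjusted p under 0.05, beside 8.1% of all genes. The median log2 fold change of the members was -0.09, -0.42 and -0.36 at ZT6, ZT9 and ZT15 in RTX430, and 0.21, 0.18 and -0.15 in SC224, while that of all genes lay between -0.09 and 0.02. These counts moved with single libraries. In RTX430 the 7 calls at ZT6 became 3 or 4 when any 1 of its libraries was left out. The 6 at ZT9 became 1 without control replicate 2, 2 without stress replicate 1, 3 without stress replicate 4 and 10 without stress replicate 3, and the 1 at ZT15 became 6 without stress replicate 3 and 3 or fewer without any 1 of the others. The 3 in SC224 at ZT6 became 1 without control replicate 2, stress replicate 1 or stress replicate 2, and the 1 at ZT9 became 0 without any 1 of its stress libraries and 2 without control replicate 1 or 2. The median at ZT6 in RTX430 was 0.11 without control replicate 2.

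Sobic.009G176800 was lowered in the most later cold comparisons, 3, and was named for that after its values were seen. At ZT6 it had 1.77, 4.08 and 6.09 CPM in cold-stressed RTX430, against 16.9, 18.1 and 19.9 CPM in controls (log2 fold change -2.23 ± 0.41 SE, adjusted p = 0.00034). In SC224 at ZT6 it had 3.87, 4.16 and 8.67 CPM, against 17.1, 17.2 and 20.3 CPM (-1.71 ± 0.39, adjusted p = 0.0062). At ZT9 in RTX430 the fold change was -1.61 ± 0.43 (adjusted p = 0.036). Heat moved it the other way at ZT15 in Macia, to 5.65, 5.83 and 6.29 CPM against 1.12, 1.80 and 3.16 CPM (1.48 ± 0.47, adjusted p = 0.023).

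Sobic.008G131100, lowered by cold at ZT6 in RTX430, had 6.60, 11.8 and 13.1 CPM there, against 17.5, 28.8 and 38.6 CPM in controls (log2 fold change -1.40 ± 0.23 SE, adjusted p = 9.8e-05). Its value in the other 5 later cold comparisons lay between -0.86 and -0.54 and was not called.

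The remaining small counts of the cold experiment were as follows. At ZT6 in RTX430 the members Sobic.001G505800, Sobic.002G322100, Sobic.008G119800 and Sobic.001G231200 were also lowered, by log2 fold changes of -2.40 to -1.08. At ZT9 in RTX430 Sobic.001G509300 was lowered as well, and Sobic.001G244600 and Sobic.006G239000 were raised, by 0.98 and 1.12. The single calls at ZT15 in RTX430 and ZT9 in SC224 were Sobic.002G203100, at -2.09, and Sobic.001G231200, at -1.06. Several of these identifiers were likewise named after their values were seen.

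Among the members raised by cold, Sobic.003G339700 was called in both labels at ZT6. It had 31, 38.5 and 39.2 CPM in cold-stressed RTX430, against 12.8, 17.8 and 21.2 CPM in controls (log2 fold change 1.07 ± 0.28 SE, adjusted p = 0.017). In SC224 it had 25.5, 31.3 and 39.2 CPM, against 9.84, 12.8 and 23.2 CPM (1.07 ± 0.28, adjusted p = 0.022). At ZT1 the rule required it to be below its controls in every comparison. In cold RTX430 it had 27.3, 35.3 and 36 CPM there, against 73.5, 79.0 and 122 CPM. Its stressed levels at ZT1 and ZT6 in RTX430 overlapped, while its controls at the 2 times did not. The ZT1 values chose this gene, so this is a description without a test. Sobic.009G048900 was raised by cold at ZT9 in RTX430, at 9.04, 12.5 and 27.7 CPM against 1.39, 2.04 and 2.44 CPM (3.03 ± 0.54, adjusted p = 0.00049). In SC224 at ZT9 it had 10.3, 14.9 and 29.5 CPM, against 5.38, 7.32 and 8.32 CPM, and was not called (1.37 ± 0.46, adjusted p = 0.12).

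**Figure D4:**
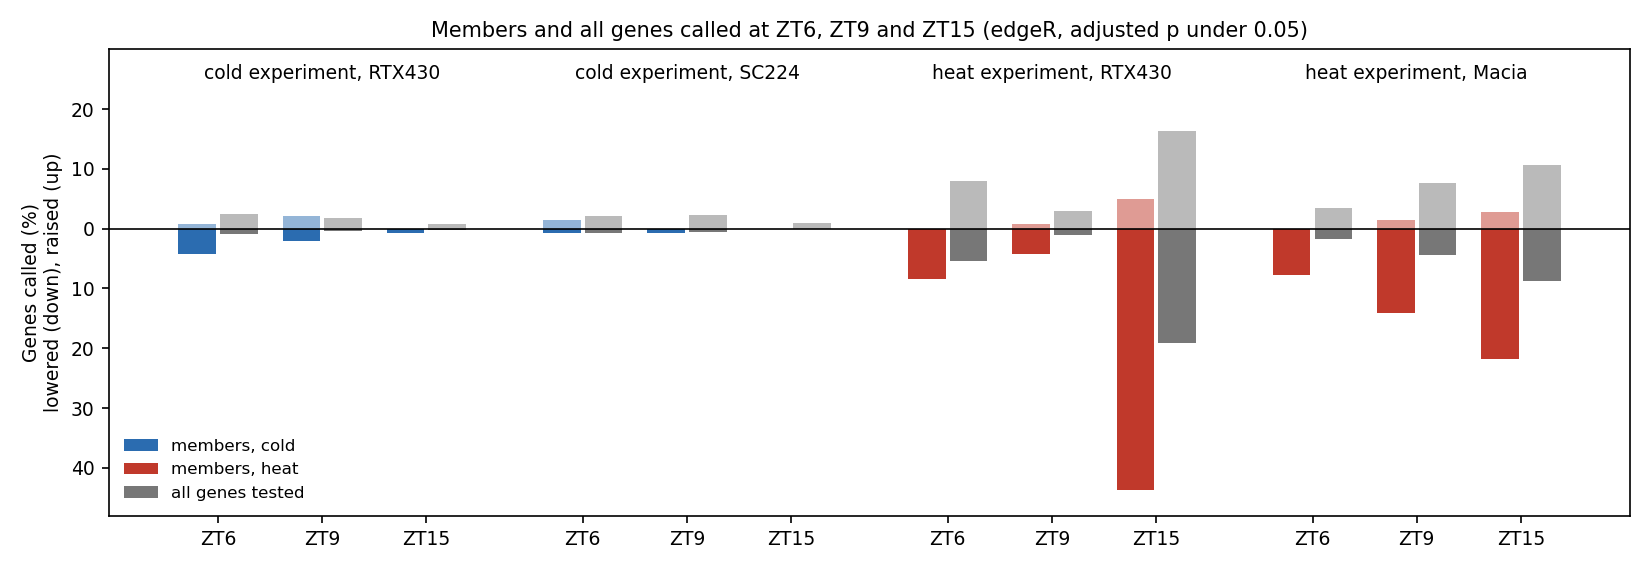
Share of genes called lowered (drawn down) or raised (drawn up, paler) at ZT6, ZT9 and ZT15 by edgeR at an adjusted p under 0.05, in percent, for the 142 members (coloured) and for all genes tested (grey). In RTX430 at ZT15, heat lowered 43.7% of the members, beside 19.2% of all genes; the cold bars of the members stay at or below 4.23%.

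Heat lowered members at every later time, and most at ZT15, the later time at which it also lowered the largest share of all genes. In RTX430 it lowered 12 and raised 0 at ZT6, where 5.37% and 7.93% of all genes were lowered and raised. At ZT9 it lowered 6 and raised 1, beside 1.05% and 3.02%, and at ZT15 it lowered 62 and raised 7, beside 19.2% and 16.3%. In Macia it lowered 11 and raised 0 at ZT6, beside 1.65% and 3.52%, lowered 20 and raised 2 at ZT9, beside 4.43% and 7.65%, and lowered 31 and raised 4 at ZT15, beside 8.74% and 10.7%. The share of members lowered at ZT15 was 43.7% in RTX430 and 21.8% in Macia, and the share raised was 4.93% and 2.82%. For the 2 comparisons with 0 raised, DESeq2 raised 3 in RTX430 and 2 in Macia at ZT6.

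The median log2 fold change of the members under heat was -0.42, -0.45 and -1.28 at ZT6, ZT9 and ZT15 in RTX430, and -0.49, -0.58 and -0.86 in Macia. Over all genes it lay between -0.18 and -0.03. The 3 heat-stressed RTX430 libraries at ZT15 had median member levels of 2.20 to 2.70 on the log2 scale, against 3.46 to 3.96 in controls, and the groups did not overlap. In Macia at ZT15 the range was 2.04 to 3.03 after heat, against 3.40 to 3.85. Without heat RTX430 ZT15 control replicate 1, 58 members were lowered and 5 raised in RTX430 at ZT15.

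At ZT15 heat lowered 23 members, or 16.2%, in both labels, where 6.35% of all genes were lowered in both. It raised 2 in both, against a background of 8.89%, and no member was called in opposite directions. These 2 labels do not share control libraries. In all 6 later heat comparisons 4 members, or 2.82%, were lowered, beside 0.247% of all genes tested: Sobic.008G131100, Sobic.002G056300, Sobic.001G054800 and Sobic.001G073300.

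Sobic.002G056300 was lower under heat at each time in both labels. At ZT6 it had 28.9, 31.2 and 38.8 CPM in heat-stressed RTX430, against 137, 153 and 156 CPM in controls (log2 fold change -2.18 ± 0.36 SE, adjusted p = 6.9e-05). In Macia at ZT15 it had 13, 19.2 and 22.9 CPM, against 175, 207 and 277 CPM (-3.58 ± 0.38, adjusted p = 6.5e-09). Over the 6 comparisons the fold change lay between -3.58 and -2.06, and no stress library reached a control. Under cold the same gene was not called after ZT1, with fold changes of -0.40 to 0.86.

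Sobic.001G054800 was lowered by heat in all 6 later comparisons and raised by cold in 1 of 6. The log2 fold changes under heat ran from -3.27 to -2.16. In Macia at ZT15 it had 5.65, 7.77 and 9.52 CPM after heat, against 63, 73.5 and 87.3 CPM in controls (-3.27 ± 0.51 SE, adjusted p = 7.2e-06). Cold raised it in SC224 at ZT6, to 131, 181 and 305 CPM against 75.4, 86.2 and 86.6 CPM (1.31 ± 0.36, adjusted p = 0.031). In RTX430 at ZT6 it had 163, 179 and 184 CPM after cold, against 68.4, 71.9 and 88.9 CPM, without a call (1.20 ± 0.35, adjusted p = 0.054). The other 4 later cold values, none of them called, were 0.0040 and 1.11 at ZT9 and ZT15 in RTX430, and 0.86 and -0.32 in SC224. At ZT1 cold had gone the other way, as the rule required, with 21.9, 34.1 and 37.8 CPM in cold-stressed RTX430 against 178, 206 and 222 CPM.

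For Sobic.008G131100 the later heat fold changes lay between -1.85 and -1.42. In RTX430 at ZT15 it had 5.53, 5.65 and 5.93 CPM after heat, against 18.9, 21 and 21 CPM in controls (-1.83 ± 0.35 SE, adjusted p = 0.00011). With the cold call at ZT6 above, it was lowered in 7 of the 12 later comparisons, the most of any member. Its change over the later controls was not called in any label, with ZT15 minus ZT6 values of -0.54 to 0.27.

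Both members that heat raised at ZT15 in both labels were called and lower at ZT15 than at ZT6 in the controls of both heat labels. Sobic.006G188200 had 32.5, 36.3 and 62.1 CPM in heat-stressed RTX430 at ZT15, against 1.43, 4.05 and 7.21 CPM in controls (log2 fold change 3.39 ± 0.58 SE, adjusted p = 2.3e-05). In Macia it had 22.6, 38.9 and 39.7 CPM, against 2.02, 5.10 and 5.34 CPM (3.03 ± 0.57, adjusted p = 0.00015). At ZT1 the order was reversed, as the rule required, with 359, 548 and 564 CPM in heat-stressed RTX430 against 1220, 1360 and 2030 CPM. Its controls in heat Macia were lower at ZT15 than at ZT6 by a log2 of -4.95.

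Sobic.005G200300 was raised by heat in 3 later comparisons. In Macia at ZT15 it had 4.24, 8.10 and 14.9 CPM after heat, against 0.756, 1.12 and 1.77 CPM in controls (log2 fold change 2.90 ± 0.68 SE, adjusted p = 0.0020). In RTX430 it had 9.34, 9.74 and 20.6 CPM at ZT9, against 1.30, 1.31 and 3.51 CPM (2.79 ± 0.73, adjusted p = 0.019), and 2.87, 3.42 and 4.57 CPM at ZT15, against 0.253, 0.745 and 0.796 CPM (2.47 ± 0.80, adjusted p = 0.015). Its ZT15 control levels in RTX430 rest on at most 5 counts a library. At ZT1 it had 2.59, 5.33 and 19.3 CPM in heat-stressed RTX430, against 34.4, 41 and 60.8 CPM. Stress and control were then in the other order, as the rule required.

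**Figure D5:**
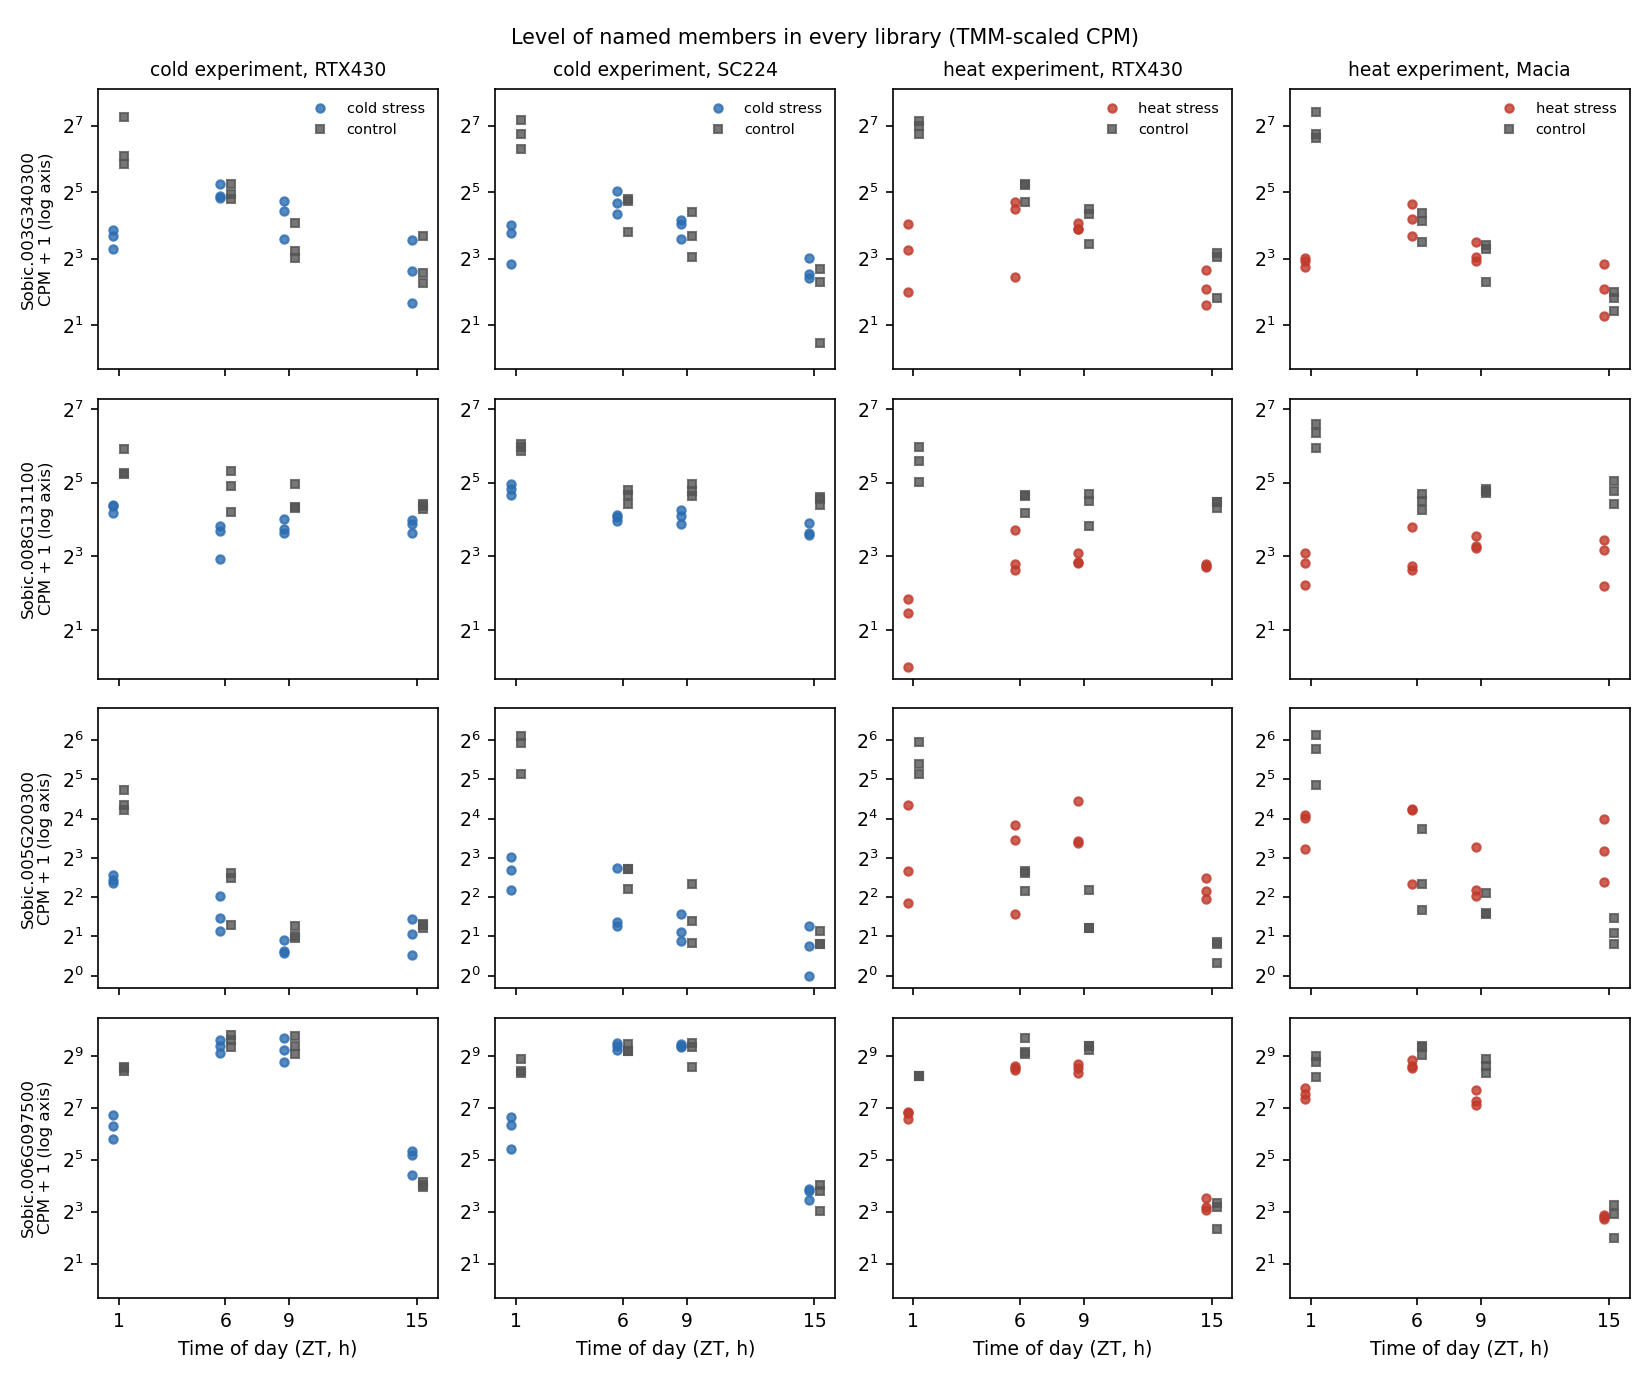
Level of 4 members in every library, as TMM-scaled CPM plus 1 on a log axis, against the time of day in hours (ZT), with circles for stress and squares for controls. Sobic.003G340300 lay wholly below its controls only in the ZT1 comparisons, Sobic.008G131100 stayed below them under heat at all 4 times, Sobic.005G200300 was below at ZT1 and above at ZT15 under heat, and Sobic.006G097500 had 522 to 887 CPM in ZT6 controls and 2.91 to 16.8 CPM in ZT15 controls.

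Counts of calls differed between the genotype labels, but the difference of the response itself was called for no member. The test of SC224 minus RTX430 under cold, and of Macia minus RTX430 under heat, gave 0 members by edgeR at each of the 3 later times. At an unadjusted p under 0.05 there were 5, 8 and 10 members for cold at ZT6, ZT9 and ZT15. Heat had 9, 8 and 20. The shares of all genes at that unadjusted threshold were 2.56%, 6.3% and 3.13% for cold, and 8.48%, 3.01% and 9.63% for heat. DESeq2 called 0 in 5 of these 6 tests and 2 for heat at ZT15. Among all genes tested, edgeR called 0%, 0.00548% and 0% for cold and 0%, 0.00536% and 0.0858% for heat. The median difference over members was 0.30, 0.45 and 0.29 for cold, with SC224 the higher, whose own medians were above 0 at ZT6 and ZT9 and below 0 at ZT15, and -0.04, -0.17 and 0.27 for heat.

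The change of the response between ZT6, ZT9 and ZT15 was tested jointly within each label. Under cold it was called for 1 member in RTX430, Sobic.009G048900 (edgeR, adjusted p = 0.047), beside 0.252% of all genes. In SC224 edgeR called 0, beside 0.0384% of all genes, and DESeq2 called 1. The SC224 test had 10 members at an unadjusted p under 0.05, beside 4.9% of all genes. Under heat it was called for 6 members in RTX430, beside 2.89% of all genes, and for 3 in Macia, beside 0.649%. Of the 6, the response was lower at ZT15 than at ZT6 in 4, by a log2 of -3.55 to -2.61, and higher in 2. Those 2 were Sobic.006G188200, at 3.13, and Sobic.010G186400, at 2.49. The 3 in Macia were Sobic.004G238100, Sobic.001G300201 and Sobic.001G313000, all lower at ZT15, by a log2 of -2.38, -1.63 and -1.23, and named after their values were seen.

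Single libraries decided several of these and the earlier heat counts. For the change of the response between later times, the count of 6 under heat in RTX430 became 1 without ZT15 control replicate 1, 2 without ZT15 control replicate 2, ZT15 stress replicate 1 or ZT15 stress replicate 2, and 11 without ZT6 stress replicate 1. The 3 in Macia became 0 without ZT15 control replicate 1 or ZT9 stress replicate 3, and 1 without any other ZT15 library, ZT6 control replicate 1, ZT9 control replicate 2 or ZT9 stress replicate 1. Under cold the 1 in RTX430 became 2 without ZT15 stress replicate 3, stayed 1 without ZT9 control replicate 3, ZT9 stress replicate 1 or ZT9 stress replicate 3, and became 0 without any 1 of the others. Of the stress comparisons under heat, the 35 calls in Macia at ZT15 became 19 without stress replicate 3. The 22 in Macia at ZT9 became 7 without stress replicate 3, 12 without stress replicate 1, and 13 without control replicate 2 or control replicate 3. In RTX430 the 12 at ZT6 became 6 without stress replicate 1 and 7 without control replicate 2, and the 7 at ZT9 became 3 without stress replicate 3. The 11 in Macia at ZT6 became 4 without control replicate 3 and 5 to 7 without control replicate 1 or any 1 of the stress libraries. The 69 calls in RTX430 at ZT15 became 54 to 63 when any 1 of its libraries was left out.

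Set beside genes that a single stress lowered at ZT1, the members had the following values, as a description. A further 797 genes were lowered by heat in both labels at ZT1 and not by cold, with both cold values above -0.5. In the same way 239 were lowered by cold and not by heat. The other stress had no upper limit in either set, so genes that it raised at ZT1 could be included. Of the 239, 237 were tested, and their shares are of those. Heat at ZT15 in RTX430 lowered 43.7% of the members, 58% of the 797 genes and 5.06% of the 239. It raised 4.93% of the members, 0.125% of the 797 and 61.2% of the 239. In later controls of cold RTX430, 39.4% of the members were called and lower at ZT15 than at ZT6, against 11.3% of the 797 and 44.7% of the 239. Cold at ZT6 in RTX430 lowered 4.23% of the members, 0.878% of the 797 and 4.64% of the 239. The 110 genes raised by both stresses at ZT1 were called raised by cold in the 6 later comparisons in 24.5% to 50% of their number. Cold lowered 0% to 4.23% of the members in the same comparisons. The backgrounds differ by direction, since cold raised 0.789% to 2.37% of all genes tested there and lowered 0.0877% to 0.827%. These sets were chosen from the same ZT1 libraries and were not tested against each other.

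The identifiers of the members were spread over the 10 numbered series of the table. The series Sobic.003 held 27 members, or 19%, beside 15% of the 16216 genes. Sobic.001 held 25, or 17.6%, beside 18.7%, and Sobic.004 held 21, or 14.8%, beside 11.9%. The lowest numbers were 4 each in Sobic.005 and Sobic.008, or 2.82% each, beside 4.62% and 5.04%.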

How the data were processed

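The authors deposited 1 table of raw counts, as whole numbers, for 34129 genes and 96 libraries, with no normalization given. HISAT2 and DESeq2 are named in the submitters' processing notes without versions or settings, and the build, annotation and use of strand are not given in the sources used here, so overlapping or near-identical genes are uncertain. The members and lists were chosen with earlier results of these data known.

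Each experiment was fitted apart in edgeR 4.0.16 (R 4.3.3) with 1 mean for each of its groups over 48 libraries, TMM factors and filterByExpr (minimum count 10, total 15), which kept all 142 members. Contrasts used the quasi-likelihood test with Benjamini-Hochberg adjustment over all genes tested. In simulated counts with 200 genes changed 4-fold, the test recovered 73% for cold RTX430 ZT15 with 5 wrong calls, and 67% for heat RTX430 ZT15 with 10. All other genes were left unchanged between stress and control in the simulation. In the measured heat RTX430 ZT15 comparison 6610 of 18648 genes were called, so the simulated rates need not hold there. The alternatives were DESeq2 1.42.0, RLE factors, library totals, no filter, the libraries concerned alone, a replicate block, leaving out each library and other settings of the rule. No 2 of the 96 replicate pairs were identical or within sampling noise (smallest chi-square per degree of freedom 3.82). Floors of 3 counts cover counting error only.

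Named genes were the members with the most negative largest D, those lowered or raised in the most later comparisons, those with the highest mean level, those at the threshold, and those with the widest span over later controls, up to 10 of each, of which a part is printed. Of the 34129 identifiers, 0 matched the RefSeq table of 32945 sorghum genes, so pathway lists, leaf and other tissue markers and promoter motifs were not used.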

Additional observations from a re-analysis of the deposited data

Results flagged for a closer look

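The stress response differed between ZT6, ZT9 and ZT15 in some members, by the joint edgeR test of that difference. These were 1 member under cold in RTX430, 6 under heat in RTX430 and 3 under heat in Macia. With 1 library left out at a time, the counts ran from 0 to 2, from 1 to 11 and from 0 to 3. The 1 was without heat RTX430 ZT15 control replicate 1, which held transcripts of other labels, the 11 without heat RTX430 ZT6 stress replicate 1, and the 0 in Macia without ZT15 control replicate 1 or ZT9 stress replicate 3.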

How the results depend on the processing

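Counts are members called out of 142, in either direction. The 12 later stress counts, in the order RTX430 and SC224 under cold and RTX430 and Macia under heat, moved by over 1.5 times as follows. With DESeq2 the cold counts were 10 at ZT9 and 6 at ZT15 in RTX430 and 4 at ZT9 in SC224, and the heat counts in RTX430 were 20 at ZT6 and 12 at ZT9. With only the libraries concerned, cold gave 0 at ZT9 and 0 at ZT15 in RTX430 and 1 at ZT6 in SC224. On that smaller fit heat gave 5 at ZT6 and 0 at ZT9 in RTX430, and 6 at ZT6 and 19 at ZT15 in Macia. Library totals alone gave 2 for cold RTX430 ZT15, 1 and 3 for cold SC224 at ZT6 and ZT9, and 54 for heat Macia ZT15. With no filter cold RTX430 ZT9 had 3. Members chosen without the 2 doubted ZT1 libraries, an alternative added after the data were seen, gave 5 for cold SC224 ZT6. The cause of these shifts was not tested. The median log2 fold change of the members kept its sign in 10 of the 12 comparisons under every alternative. It was 0.11 in place of -0.09 for cold RTX430 ZT6 without control replicate 2, and -0.16 in place of 0.18 for cold SC224 ZT9 with library totals.

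For the change of the response between later times, cold RTX430 had 3 members with DESeq2 and 0 with RLE factors, library totals, no filter or only the libraries concerned, and cold SC224 had 1 with DESeq2. Heat RTX430 had 14 with DESeq2, 10 with library totals and 1 with only the libraries concerned, and heat Macia had 5, 1 and 0. The genotype difference under heat at ZT15 had 2 with DESeq2. The rule gave 241 members at a threshold of -0.8 and 77 at -1.2, and 128 to 153 when 1 ZT1 library was left out.

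With 1 library left out at a time, cold counts ran from 3 to 4 (RTX430 ZT6), 1 to 10 (ZT9) and 0 to 6 (ZT15), and from 1 to 3 (SC224 ZT6), 0 to 2 (ZT9) and 0 to 0 (ZT15). Heat counts ran from 6 to 16 (RTX430 ZT6), 3 to 7 (ZT9) and 54 to 63 (ZT15), and from 4 to 10 (Macia ZT6), 7 to 23 (ZT9) and 19 to 43 (ZT15). The count for the change between later times ran from 0 to 2 and stayed 0 in cold RTX430 and SC224, and ran from 1 to 11 and from 0 to 3 in heat RTX430 and Macia. The genotype difference ran from 0 to 1 under heat at ZT15 and was 0 in the other such tests. The time of day counts ran from 57 to 69, 57 to 73, 46 to 60 and 47 to 60 in the 4 labels. Every fit used the 3 libraries of the other group, or 2, with a shared estimate of the spread.

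Replicate numbers showed no steady sign of pairing the samples: 11 of 34 same-numbered pairs had deviations with r over 0.1. In cold RTX430 at ZT9 the same-numbered pairs had r of 0.36 and 0.45, so pairing there cannot be told from these values. With the replicate block, cold RTX430 ZT15 had 3 members, and the other 25 counts stayed within 1.5 times. No call of a named gene changed direction in 945 recomputed values, and 182 were no longer past the threshold. Under library totals alone the median of all genes shifted by -0.39 in heat RTX430 ZT15 and -0.25 in heat Macia ZT15. Low library totals limit members of few CPM most, and values at the floor allow only a bound.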
